A study of Canis lupus familiaris with 6 samples.

Results

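The mitochondrial chromosome (MT) of the dog was examined in CMM10 cells, grown from a malignant melanoma of the dog, under hypoxia and under normoxia. Its genes were taken as every row whose chromosome is given as MT in the data of the 6 libraries. This gave 37 of 29822 genes: 13 protein-coding genes, called mRNAs here, 2 rRNAs and 22 tRNAs. Rows were counted singly, and whether overlapping rows share a transcript was not tested. The 13 mRNAs carry symbols. The rRNA and tRNA rows carry an identifier only, so the rRNAs are called here the shorter rRNA (positions 70 to 1023, ENSCAFG00000022709) and the longer rRNA (1091 to 2670, ENSCAFG00000022711), all positions being of the CanFam3.1 build. RNA sequencing was done on 3 hypoxia libraries and 3 normoxia libraries of polyadenylated RNA. The labels give neither oxygen level nor time, name no other agent, and do not say whether the replicates were separate cultures, so p-values measure only the spread between these samples, which may be technical.

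The mitochondrial chromosome encodes core subunits of the respiratory chain, which passes electrons to oxygen and drives ATP synthesis, together with the rRNAs and tRNAs needed to translate them inside the organelle. In mammals both strands are transcribed as long precursors, and excision of the tRNAs that lie between the other genes releases the rRNAs and mRNAs. All genes of a strand can thus come from one precursor, and their steady levels also depend on processing, polyadenylation and decay.

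Of the 37 genes, 28 lie on the forward strand of the deposited table (12 mRNAs, both rRNAs and 14 tRNAs) and 9 on its complement (MT-ND6 and 8 tRNAs). Every row is a single exon, and 20 rows overlap another row of the chromosome. The rRNAs come first, followed by MT-ND1 (2747 to 3703), MT-ND2 (3914 to 4957), MT-CO1 (5349 to 6893) and MT-CO2 (7034 to 7717). MT-ATP8 (7803 to 8006) overlaps MT-ATP6 (7964 to 8644), which shares its last base with COX3 (8644 to 9427). MT-ND3 (9496 to 9842) is followed by ND4L (9911 to 10207), which overlaps MT-ND4 (10201 to 11578). ND5 (11778 to 13598) runs into MT-ND6, which lies on the complement strand from 13582 to 14109, and MT-CYB (14183 to 15322) is the last mRNA. The library kit does not mark strand, so reads from MT-ND6 cannot be told apart from reads of RNA antisense to it. In human cells the ND5 mRNA is known to extend across that region.

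The libraries held 23196647 to 28804337 gene reads, of which 907178 to 1247206 were mitochondrial. At most 2 mitochondrial reads per library were not uniquely mapped. Melanocytic markers summed to 139 to 145 CPM (reads scaled to a common library total) under hypoxia and 129 to 139.5 CPM under normoxia over 8 of 8 genes, with SOX10, DCT and MITF present and the pigment enzyme genes TYR (26 reads in all 6 libraries) and TYRP1 (4 reads) nearly absent. Epithelial markers (3 of 4 matched), mainly KRT14, summed to 4405 to 5077 CPM under hypoxia and 1169.9 to 1211 CPM under normoxia. Fibroblast markers (4 of 4), mainly COL1A2, summed to 5569 to 5746 CPM under hypoxia and 4215 to 4497 CPM under normoxia. Endothelial markers (3 of 3) summed to 6.48 to 7.09 CPM under hypoxia and 5.62 to 6.82 CPM under normoxia. Immune markers (2 of 3) stayed at 0.251 to 0.340 CPM under hypoxia and 0.302 to 0.617 CPM under normoxia. The epithelial and fibroblast sums were higher in all 3 hypoxia libraries, but their members differed. KRT14 averaged 4453 CPM under hypoxia and 873 CPM under normoxia, and CDH1 258 and 187 CPM. EPCAM was lower under hypoxia, at 112 and 124 CPM. COL1A1 averaged 300 and 247 CPM, while DCN (2.51 and 1.89 CPM) and PDGFRA (6.12 and 1.52 CPM) were low. The part of these genes in the mitochondrial results was not tested.

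The mitochondrial chromosome gave fewer reads under hypoxia, and the fall was very uneven among its genes. MT-ND1 fell by 57.7%, MT-ND2 fell by 58.0% and MT-CYB fell by 49.6%, while 7 other mRNAs fell by 16.1% to 25.0%. ND5 fell by 6.29%, MT-ND6 differed by 0.247%, which did not pass the test, and the shorter rRNA rose by 66.6%. Mitochondrial reads were 3.29, 3.21 and 3.33% of gene reads in the hypoxia libraries (replicates 1, 2 and 3, the order used throughout) and 4.56, 4.62 and 4.51% in the normoxia libraries. The groups did not overlap (two-sided exact permutation p = 0.1, the smallest that 3 against 3 can give). CPM are here always scaled by TMM factors computed over the genes that passed a count filter. As CPM the mitochondrial sum was 33514 ± 767 under hypoxia and 44564 ± 725 under normoxia (mean ± SD, n = 3 each). In these bulk libraries, fewer cells with a given RNA cannot be told apart from less RNA per cell, and lower abundance of a transcript cannot be told apart from poorer capture of its poly(A) tail.

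By edgeR (quasi-likelihood, Benjamini-Hochberg adjusted) over 15397 genes, 11 of the 13 mRNAs were lower under hypoxia and 0 higher. Of all genes tested, 24.4% were called lower and 24.5% higher, and with library size as the only scaling these shares were 31.6% and 20.0%. The median log2 fold change of hypoxia over normoxia was -0.34 over the 13 mRNAs, all of which passed the count filter, and 0.00096 over all genes tested. Of the rRNAs 1 was higher and 0 lower, and of the 22 tRNAs 3 passed the filter and 0 were called. In 12 of 13 mRNAs the CPM of the hypoxia libraries lay below all normoxia libraries, where this held for 27.5% of all genes tested.

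**Figure D1:**
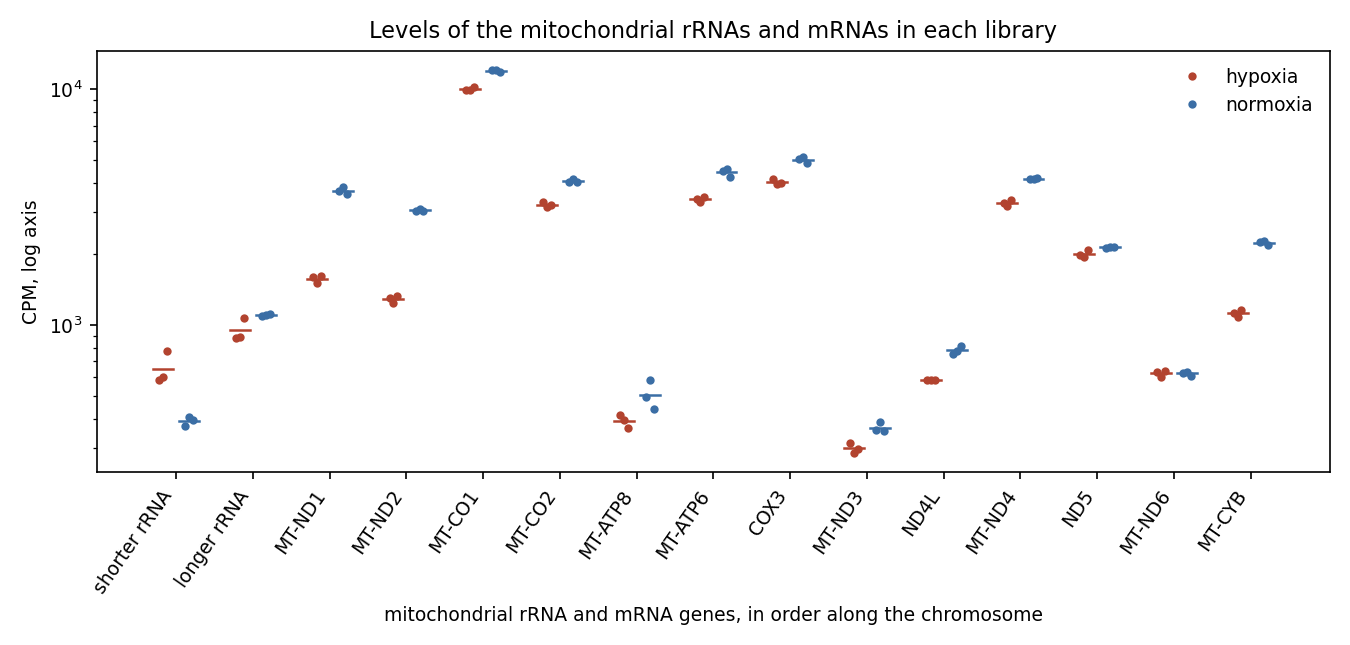
CPM of the 15 mitochondrial rRNA and mRNA genes in each library, on a log axis, in order along the chromosome; points are libraries and bars are the means of the 3 libraries of a condition. The hypoxia points of MT-ND1, MT-ND2 and MT-CYB lie far below the normoxia points, those of the shorter rRNA lie above, and those of MT-ND6 overlap.

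MT-ND1 and MT-ND2 encode membrane subunits of complex I, the NADH dehydrogenase that feeds electrons into the chain, and MT-CYB encodes cytochrome b, the only mitochondrially encoded subunit of complex III. MT-ND1 had 1593, 1505 and 1607 CPM under hypoxia and 3694, 3844 and 3588 CPM under normoxia. MT-ND2 had 1305, 1239 and 1325 CPM under hypoxia and 3051, 3107 and 3047 CPM under normoxia. MT-CYB had 1126, 1083 and 1162 CPM under hypoxia and 2237, 2262 and 2191 CPM under normoxia. In each of these genes the highest hypoxia library stood far below the lowest normoxia library. The log2 fold changes were -1.24 ± 0.035 for MT-ND1, -1.25 ± 0.033 for MT-ND2 and -0.99 ± 0.033 for MT-CYB (± SE), with adjusted p of 2.60e-24, 6.37e-25 and 4.80e-22 by edgeR (quasi-likelihood, Benjamini-Hochberg adjusted). Over the 13 alternatives tried, their values stayed within -1.31 to -1.21, -1.32 to -1.22 and -1.06 to -0.96. These 3 mRNAs held 45.5% of the fall in mitochondrial CPM. The sum of the remaining 34 rows was 29532 ± 632 CPM under hypoxia and 35557 ± 531 CPM under normoxia, a change of -16.9%, also with no overlap between the groups (two-sided exact permutation p = 0.1).

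The other complex I mRNAs changed less. MT-ND4 had 3286, 3181 and 3381 CPM under hypoxia and 4154, 4139 and 4193 CPM under normoxia. ND4L had 587, 584 and 587 CPM under hypoxia and 751, 778 and 815 CPM under normoxia. MT-ND3 had 315, 287 and 297 CPM under hypoxia and 360.2, 386 and 355 CPM under normoxia. All 3 fell, with log2 fold changes of -0.34 ± 0.032 for MT-ND4, -0.41 ± 0.034 for ND4L and -0.29 ± 0.038 for MT-ND3, and the groups did not overlap. ND5 had 1984, 1943 and 2069.9 CPM under hypoxia and 2125, 2142 and 2132 CPM under normoxia, a small log2 fold change of -0.094 ± 0.032 (adjusted p = 0.0162 by edgeR, quasi-likelihood with Benjamini-Hochberg adjustment). That call was lost by edgeR without hypoxia replicate 1 (adjusted p = 0.0687), hypoxia replicate 2 (adjusted p = 0.106) or normoxia replicate 2 (adjusted p = 0.0619), and adjusted p was 5.14e-05 to 0.106 over all alternatives. MT-ND6, the complement-strand subunit, had 629, 603 and 640.3 CPM under hypoxia and 625, 634 and 608 CPM under normoxia. Its groups overlapped, and its log2 fold change of 0.0036 ± 0.033 did not pass (adjusted p = 0.944 by edgeR, quasi-likelihood with Benjamini-Hochberg adjustment). Library size as the only scaling gave MT-ND6 a value of -0.063, also not called.

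Complex IV, cytochrome c oxidase, reduces oxygen to water, and its catalytic core is encoded by MT-CO1, MT-CO2 and COX3. MT-CO1, which had the most reads of the chromosome, had 9947, 9935 and 10239.6 CPM under hypoxia and 12051, 11999.8 and 11855 CPM under normoxia. MT-CO2 had 3327, 3166 and 3214 CPM under hypoxia and 4044, 4172 and 4025 CPM under normoxia. COX3 had 4168, 3971 and 4015 CPM under hypoxia and 5026, 5139.8 and 4853 CPM under normoxia. All 3 fell with no overlap, by 0.25 ± 0.030, 0.33 ± 0.032 and 0.31 ± 0.033 on the log2 scale. Of the ATP synthase (complex V) subunits, MT-ATP6 had 3420.2, 3333 and 3495 CPM under hypoxia and 4472, 4592 and 4235 CPM under normoxia, and it fell by 0.38 ± 0.034. MT-ATP8, whose row shares 43 bases with MT-ATP6, had 415, 395 and 367 CPM under hypoxia and 494, 583 and 441 CPM under normoxia. Its normoxia libraries were the most spread of any mRNA, and its change of -0.37 ± 0.12 did not pass (adjusted p = 0.0750 by edgeR, quasi-likelihood with Benjamini-Hochberg adjustment), although it passed by edgeR without normoxia replicate 2 (-0.26, adjusted p = 0.00144) or normoxia replicate 3 (-0.46, adjusted p = 0.0239). It also passed by DESeq2 (-0.37, adjusted p = 0.0108), and by edgeR without TMM factors (-0.43, adjusted p = 0.0439). Over all alternatives adjusted p for MT-ATP8 was 0.00144 to 0.193 (edgeR and DESeq2).

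The rRNAs of the mitochondrial ribosome moved apart. The shorter rRNA had 585, 601 and 774 CPM under hypoxia and 374, 407 and 395 CPM under normoxia. All hypoxia libraries were higher, replicate 3 most, and the gene rose by 0.74 ± 0.13 on the log2 scale (adjusted p = 0.0113 by edgeR, quasi-likelihood with Benjamini-Hochberg adjustment). Without hypoxia replicate 3 the rise was 0.60, still called by edgeR (adjusted p = 4.21e-16, and 4.21e-16 to 0.0477 over all alternatives). The longer rRNA had 883, 891 and 1073 CPM under hypoxia and 1092, 1106 and 1112 CPM under normoxia. Its hypoxia libraries were all lower, with replicate 3 near the normoxia level, and its change of -0.22 ± 0.083 did not pass (adjusted p = 0.0848 by edgeR, quasi-likelihood with Benjamini-Hochberg adjustment). Leaving out hypoxia replicate 3 gave a lower call by edgeR (-0.32, adjusted p = 1.63e-09, and 1.63e-09 to 0.236 over all alternatives). The libraries were selected for poly(A), so these levels are those of rRNA carried through that selection.

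**Figure D2:**
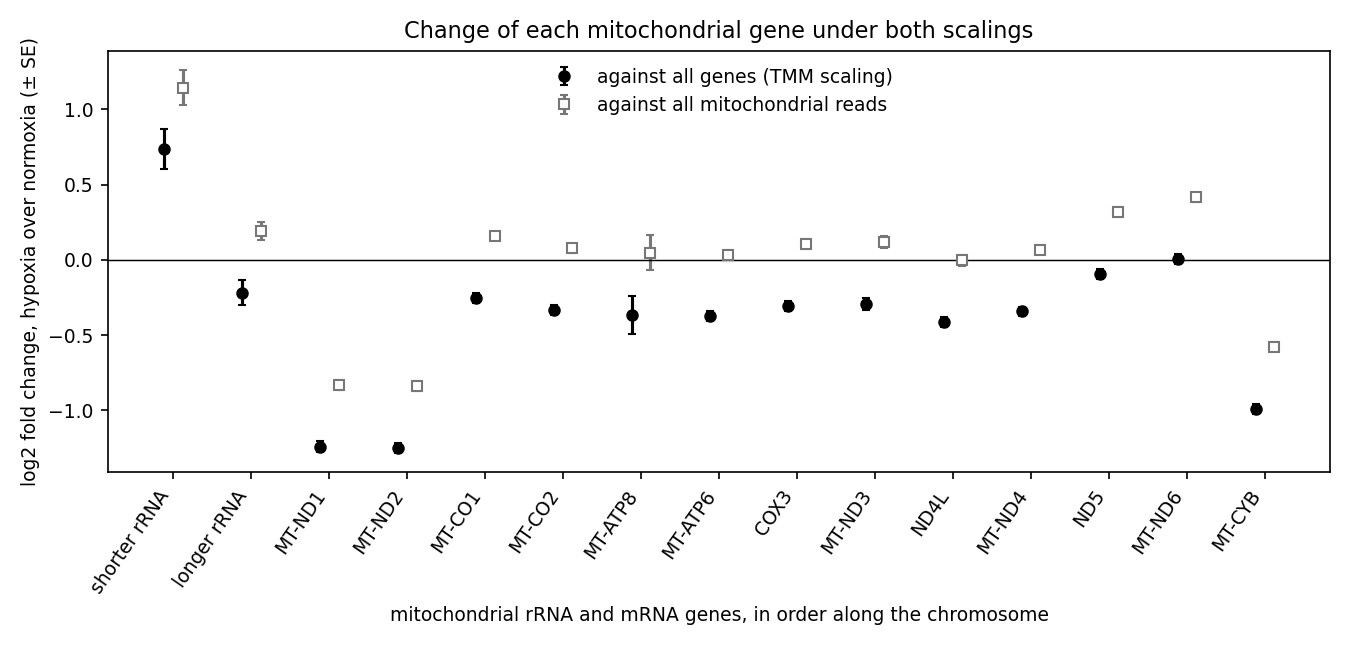
Log2 fold change of hypoxia over normoxia with its SE for the 15 rRNA and mRNA genes in chromosome order. Filled circles are scaled by TMM over the genes tested, and open squares by each library's mitochondrial reads. MT-ND1, MT-ND2 and MT-CYB lie below 0 under both scalings and the shorter rRNA above 0, while most other mRNAs fall below 0 under the first scaling and at or above 0 under the second.

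The make-up of the mitochondrial reads differed between the conditions. MT-ND1, MT-ND2 and MT-CYB together took 12, 11.7 and 12% of the mitochondrial reads under hypoxia and 20.2, 20.3 and 20.1% under normoxia. The complex IV mRNAs took 51.7 ± 0.623% under hypoxia and 47.2 ± 0.181% under normoxia (mean ± SD, n = 3 each), and the complex V mRNAs 11.4 ± 0.0770% under hypoxia and 11.1 ± 0.385% under normoxia. The 7 complex I mRNAs as a whole took 28.8 ± 0.206% under hypoxia and 33.3 ± 0.265% under normoxia, whereas the 5 of them other than MT-ND1 and MT-ND2 took 20.3 ± 0.10% under hypoxia and 18.1 ± 0.336% under normoxia. The groups overlapped for complex V (two-sided exact permutation p = 0.4) and did not overlap for the others (p = 0.1, two-sided exact permutation). Both rRNAs together took 4.78 ± 0.543% under hypoxia and 3.36 ± 0.0742% under normoxia. All mRNAs took 95.2 ± 0.543% under hypoxia and 96.6 ± 0.0725% under normoxia (two-sided exact permutation p = 0.1 for each class, 0.15 after Benjamini-Hochberg adjustment over the 3 classes). Of the 15 single genes, 10 had a larger share in all hypoxia libraries, 3 a smaller share, and MT-ATP8 and ND4L overlapped. How often genes at large separate in this way was not computed. When libraries were scaled by mitochondrial reads, edgeR called 69.4% of all genes tested higher and 2.14% lower. With 3 against 3 no exact permutation p in this family of 15 can fall below 0.1.

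Fitted over all genes with each library scaled by its mitochondrial reads, edgeR (quasi-likelihood, Benjamini-Hochberg adjusted) called 3 of the 13 mRNAs lower, 7 higher, both rRNAs higher and 2 of the 3 tested tRNA rows higher. Of all genes tested, 2.14% were called lower and 69.4% higher at this scaling, whose median over all genes was 0.41. MT-ND1 (-0.83 ± 0.032), MT-ND2 (-0.84 ± 0.031) and MT-CYB (-0.58 ± 0.031) fell relative to the mitochondrial reads. The shorter rRNA rose by 1.15 ± 0.12, MT-ND6 by 0.41 ± 0.033, ND5 by 0.32 ± 0.031 and the longer rRNA by 0.19 ± 0.058. Relative rises were smaller for MT-CO1 (0.16 ± 0.028), MT-ND3 (0.12 ± 0.039), COX3 (0.11 ± 0.031), MT-CO2 (0.077 ± 0.031) and MT-ND4 (0.068 ± 0.031), while MT-ATP8 (0.046 ± 0.12), MT-ATP6 (0.035 ± 0.031) and ND4L (-0.0039 ± 0.037) did not pass. The calls of MT-ND4 and MT-CO2 were each lost in 5 of the 6 fits that left out a library, that of MT-ND3 without hypoxia replicate 1, and that of the longer rRNA without normoxia replicate 2. Higher calls numbered 7 without hypoxia replicate 1 and 6 without normoxia replicate 2. Shares sum to a fixed total, so the loss of abundant members raises the others by construction. MT-ND1, MT-ND2 and MT-CYB were also left out of the scaling, a choice made after seeing the data. This divisor lacks the members that fell most, so all relative values shift down by construction. The share of all genes called at this scaling was not computed. Of the mitochondrial rows, 6 were called lower and 5 higher in place of 3 and 11. Then the shorter rRNA (1.00), MT-ND6 (0.27) and ND5 (0.17) kept called rises, whereas MT-CO1 (0.014), COX3 (-0.037) and MT-ND3 (-0.024) were close to 0 and no longer called, and ND4L (-0.15), MT-ATP6 (-0.11) and MT-ND4 (-0.075) were called lower.

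**Figure D3:**
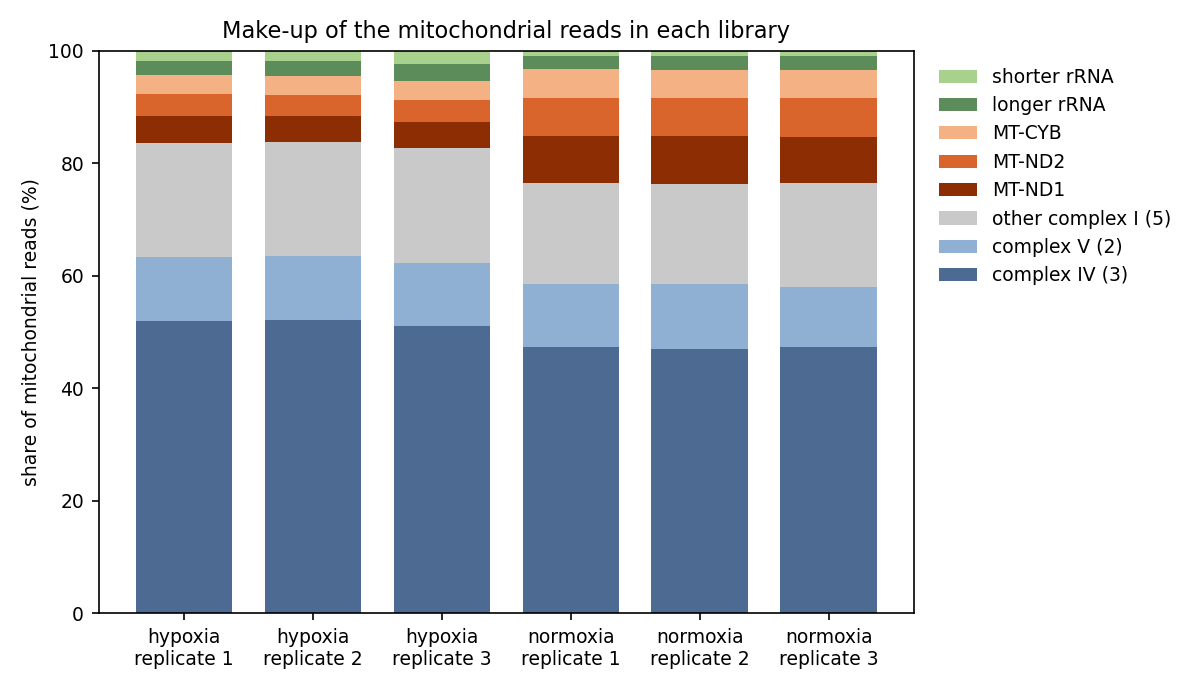
Share of the mitochondrial reads taken by groups of genes in each of the 6 libraries, in percent from 0 to 100, with the number of genes of a group in brackets. The 3 hypoxia bars have smaller MT-ND1, MT-ND2 and MT-CYB segments and larger complex IV and rRNA segments than the 3 normoxia bars.

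Ratios between neighbours within a library do not depend on the scaling. Over the 14 pairs of adjacent rRNA and mRNA genes, taken as reads per base of the later gene over the earlier, 4 pairs differed between the conditions by over 0.9 on the log2 scale and the other 10 by at most 0.25. The 4 steps were the longer over the shorter rRNA (-0.95 ± 0.048, hypoxia minus normoxia ± SE), MT-ND1 over the longer rRNA (-1.02 ± 0.085), MT-CO1 over MT-ND2 (1.00 ± 0.024) and MT-CYB over MT-ND6 (-0.99 ± 0.0076). The groups did not overlap in any of these, and in 4 of the other 10 pairs (two-sided exact permutation p = 0.1 at the least, 0.175 after Benjamini-Hochberg adjustment over the 14). How often other pairs of genes separate in this way was not computed. Adjacent pairs share genes, so the steps restate the changes of single genes and are not separate results. The ratio of MT-ND1 to MT-ND2 did not separate the conditions: per base it was 1.33, 1.33 and 1.32 under hypoxia and 1.32, 1.35 and 1.28 under normoxia, with overlapping groups. MT-ND1 over MT-CYB was 1.68, 1.66 and 1.65 under hypoxia and 1.97, 2.02 and 1.95 under normoxia, lower in every hypoxia library. The shorter over the longer rRNA was 1.10, 1.12 and 1.2 under hypoxia and 0.568, 0.610 and 0.588 under normoxia. MT-CYB over ND5, the nearest mRNA on the same strand, was 0.907, 0.890 and 0.897 under hypoxia and 1.68, 1.69 and 1.64 under normoxia. MT-ND6 over ND5, which lie on opposite strands and share 17 bases, was 1.09, 1.07 and 1.07 under hypoxia and 1.02, 1.02 and 0.984 under normoxia.

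**Figure D4:**
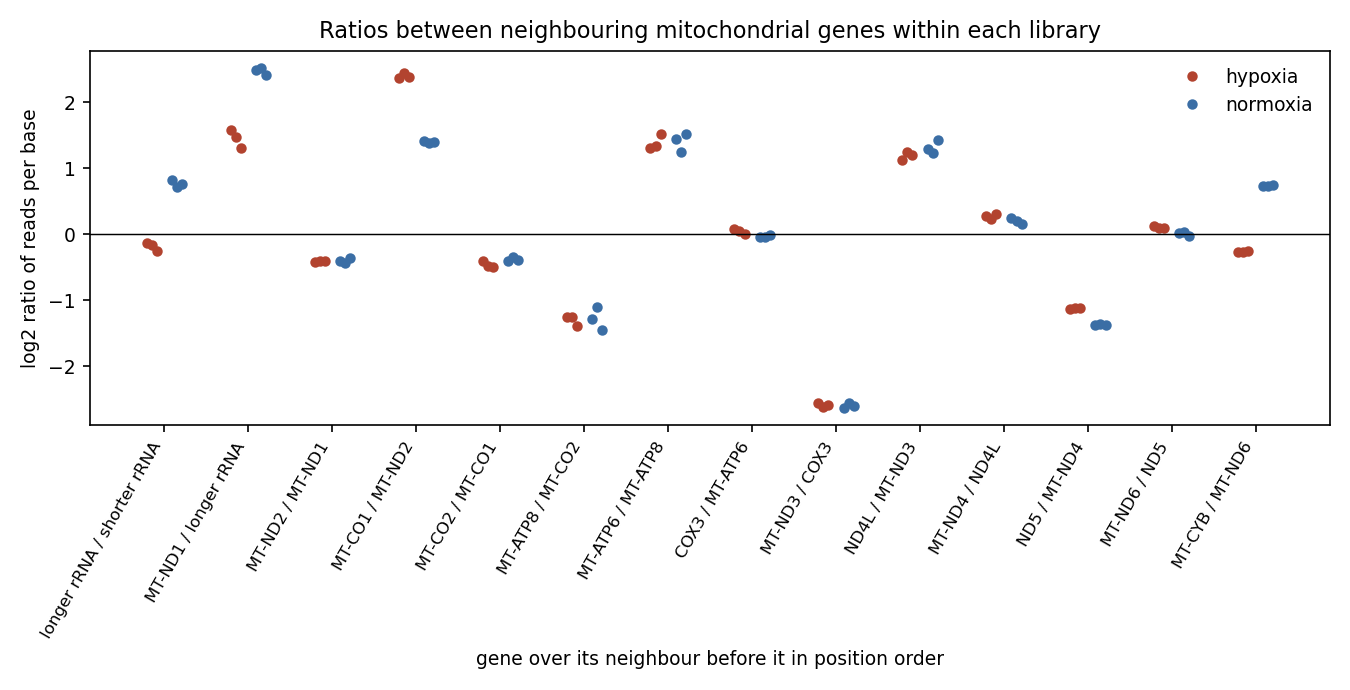
Log2 ratio of reads per base between each rRNA or mRNA gene and the gene before it along the chromosome, with a point for each library. Hypoxia and normoxia points are about 1 log2 unit apart at 4 steps: after the shorter rRNA, on either side of the MT-ND1 and MT-ND2 pair, and before MT-CYB.

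Per length, in the TPM values deposited by the authors, the mRNAs ranged from 1949.5 ± 84.7 TPM for MT-ND3 to 14322 ± 321 TPM for MT-CO1 under hypoxia, and from 2196 ± 38.6 TPM for MT-ND6 to 17489 ± 234 TPM for MT-CO1 under normoxia. MT-CO1 was the 3rd most abundant of all 29822 rows in every hypoxia library and the 1st in every normoxia library. MT-CO1, COX3, MT-ATP6 and MT-CO2 held the top 4 mitochondrial places in that order in both conditions. In the order of group means MT-ND1 took the 6th place among the 15 genes under hypoxia and the 5th under normoxia, MT-ND2 the 9th under hypoxia and the 6th under normoxia, and MT-CYB the 11th under hypoxia and the 8th under normoxia. Libraries overlapped between 5 of the 14 adjacent places under hypoxia (MT-ATP6 and MT-CO2, MT-ATP8 and ND4L, MT-CYB and MT-ND6, MT-ND3 and the shorter rRNA, and the rRNAs) and between 2 under normoxia (MT-ND2 and MT-ND4, and ND4L and MT-ATP8). Mitochondrial rows made up 5 of the 10 most abundant rows in each hypoxia library and 7 of 10 in each normoxia library. The shorter rRNA averaged 1592 ± 266 TPM under hypoxia and 972 ± 45.6 TPM under normoxia, and the longer 1392 ± 167 TPM under hypoxia and 1647 ± 46.3 TPM under normoxia. The shorter rRNA lay above the longer in all 3 hypoxia libraries and below it in all 3 normoxia libraries. All mitochondrial rows summed to 7.78% ± 0.144 of TPM under hypoxia and 10.6% ± 0.122 under normoxia.

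The 22 tRNA rows, of 60 to 75 bases, held almost no reads. Their sum was 73, 47 and 57 reads under hypoxia and 77, 54 and 30 under normoxia. The largest share of mitochondrial reads was 0.00770% (95% exact Clopper-Pearson interval 0.00604% to 0.00969%) in hypoxia replicate 1, and the smallest 0.00287% (0.00194% to 0.00409%) in normoxia replicate 3. These intervals cover counting error only. The groups overlapped (two-sided exact permutation p = 0.3), and 7 rows had 0 reads in all libraries, which allows a share of up to 0.000331% of the mitochondrial reads in the shallowest one. Rows annotated on the complement strand held 313 of the 338 tRNA reads. The kit does not mark strand, so these reads cannot be told apart from reads of RNA antisense to the rows. The 3 rows that passed the count filter are all on the complement strand. The row at 15392 to 15457 had 16, 17 and 15 reads under hypoxia and 41, 24 and 13 reads under normoxia. The row at 5212 to 5279 had 20, 10 and 12 reads under hypoxia and 10, 2 and 7 reads under normoxia, and its neighbour at 5280 to 5347 had 14, 6 and 22 reads under hypoxia and 10, 6 and 3 reads under normoxia. None of the 3 passed edgeR (quasi-likelihood, Benjamini-Hochberg adjusted); without normoxia replicate 3 the row at 15392 was called lower by edgeR (-1.05, adjusted p = 0.0425, and 0.0425 to 0.652 over all alternatives). Scaled by mitochondrial reads, where 69.4% of all genes tested were called higher, the rows at 5212 and 5280 were the 2 called higher. The row at 5212 lost that call by DESeq2 (adjusted p = 0.0548), and by edgeR without hypoxia replicate 1 (adjusted p = 0.148) or normoxia replicate 2 (adjusted p = 0.132). The row at 5280 lost it by DESeq2 (adjusted p = 0.0525), and by edgeR without hypoxia replicate 3 (adjusted p = 0.195), normoxia replicate 2 (adjusted p = 0.0731) or normoxia replicate 3 (adjusted p = 0.0907). The other 19 tRNA rows did not pass the count filter and so have no test here. In 2 of them the CPM of the groups did not overlap. Among the genes tested this held for 27.5% lower and 27.8% higher, and no such share was computed for rows below the filter. The row at 5037 to 5105 had 7, 4 and 4 reads under hypoxia and 2, 2 and 2 reads under normoxia. The row at 5107 to 5178 had 0, 2 and 1 reads under hypoxia and 9, 5 and 2 reads under normoxia. There hypoxia replicate 2 and normoxia replicate 3 had equal reads (2) and were parted only by the scaling (0.0716 and 0.0838 CPM). The part of poly(A) selection and of the short length of these rows in their low counts was not tested.

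Although every mitochondrial row is a single exon, the tables place some of its reads outside the exon, as intron reads. They made up 4.83 ± 0.0524% of mitochondrial reads under hypoxia and 4.50 ± 0.209% under normoxia, and no source used here says how they were assigned. The share was highest in MT-ATP8 (28.8 ± 0.918% under hypoxia and 31.3 ± 2.53% under normoxia), ND4L (30.9 ± 1.12% and 30.9 ± 2.84%) and MT-ND6 (19.9 ± 0.359% and 21.3 ± 1.36%). It was at most 7.54% on average in the other 12 genes. MT-ATP8 shares 43 bases with other rows, ND4L 7 and MT-ND6 19. MT-ATP6 shares 44 bases, and there the share was 6.59 ± 0.0799% and 7.54 ± 0.335%. In MT-ND3, which shares 1 base, it was 2.88 ± 0.539% and 3.52 ± 0.168%. The part of row length and overlap in this share was not tested. In MT-ND1 it was 0.845, 0.790 and 0.616% under hypoxia and 0.394, 0.355 and 0.362% under normoxia. In MT-CYB it was 0.881, 0.998 and 1.02% under hypoxia and 0.785, 0.767 and 0.830% under normoxia. Both shares were higher in all hypoxia libraries, as they were in MT-CO1 and MT-CO2. The share was lower in MT-ATP6 and COX3, and the groups overlapped in 9 of 15 genes. The two-sided exact permutation p was 0.1 at the least, and 0.25 after Benjamini-Hochberg adjustment over the 15. How often genes at large separate by this share was not computed. Hypoxia libraries averaged 24.6% intron reads across all genes and normoxia libraries 24.2%, with overlapping groups (two-sided exact permutation p = 0.6). As levels, such reads of MT-ND1 were at 11.7 ± 1.79 CPM under hypoxia and 13.7 ± 0.781 CPM under normoxia with overlapping groups, and those of MT-CYB at 10.9 ± 0.968 CPM under hypoxia and 17.7 ± 0.435 CPM under normoxia with none. From exon reads only, MT-ND1 changed by -1.24, MT-ND2 by -1.25 and MT-CYB by -0.98.

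The nuclear genes that serve mitochondrial RNA and DNA also changed, mostly downward. Of 74 entries listed from textbook knowledge, 65 matched a symbol and 64 passed the count filter, of which edgeR (quasi-likelihood, Benjamini-Hochberg adjusted) called 37 lower and 6 higher, with a median log2 fold change of -0.27, beside the 24.4% called lower and 24.5% called higher of all genes tested. In 38 of the 64 the hypoxia libraries lay below all normoxia libraries (27.5% of all genes tested) and in 6 above (27.8%). Lower calls were 4 of 8 genes of transcription, 11 of 21 of RNA processing and modification, 11 of 14 of RNA stability and decay, 7 of 14 of mtDNA upkeep and 4 of 7 nuclear regulators.

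Transcription of the organelle needs the RNA polymerase POLRMT, the DNA-packaging factor TFAM and the elongation factor TEFM. POLRMT had 48.5, 48.9 and 42.5 CPM under hypoxia and 56.0, 61.1 and 62.7 CPM under normoxia, and it fell (-0.36 ± 0.059). TEFM had 11.4, 9.95 and 10.3 CPM under hypoxia and 13.8, 13.8 and 14.7 CPM under normoxia, and it also fell (-0.41 ± 0.10). TFAM went the other way and was higher in every hypoxia library: it had 44.9, 43.5 and 44.5 CPM under hypoxia and 34.7, 32.1 and 34.6 CPM under normoxia, a rise of 0.39 ± 0.059. LRPPRC, which stabilises mitochondrial mRNAs and promotes their polyadenylation, had 268, 263 and 263 CPM under hypoxia and 375, 388 and 389 CPM under normoxia and fell by 0.54 ± 0.034. The largest falls of the list were ATAD3A, a membrane ATPase linked to nucleoids (-0.85 ± 0.062), QTRT1, a subunit of tRNA-guanine transglycosylase (-0.84 ± 0.12), and the PGC-1-related coactivator PPRC1 (-0.82 ± 0.053). Its largest rises were the matrix protease LONP1 (1.38 ± 0.038), FASTKD1, a member of a family of mitochondrial RNA-binding proteins (0.73 ± 0.061), and the tRNA-modifying enzyme TRMU (0.60 ± 0.077). Each of these 10 genes passed, with adjusted p no larger than the 8.55e-04 of TEFM by edgeR (quasi-likelihood, Benjamini-Hochberg adjusted). All 10 passed with the same sign from exon reads only, where ATAD3A changed by -0.59. The models of ATAD3A, LONP1 and TRMU each overlap 1 other annotated gene, so their values may hold its reads.

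**Figure D5:**
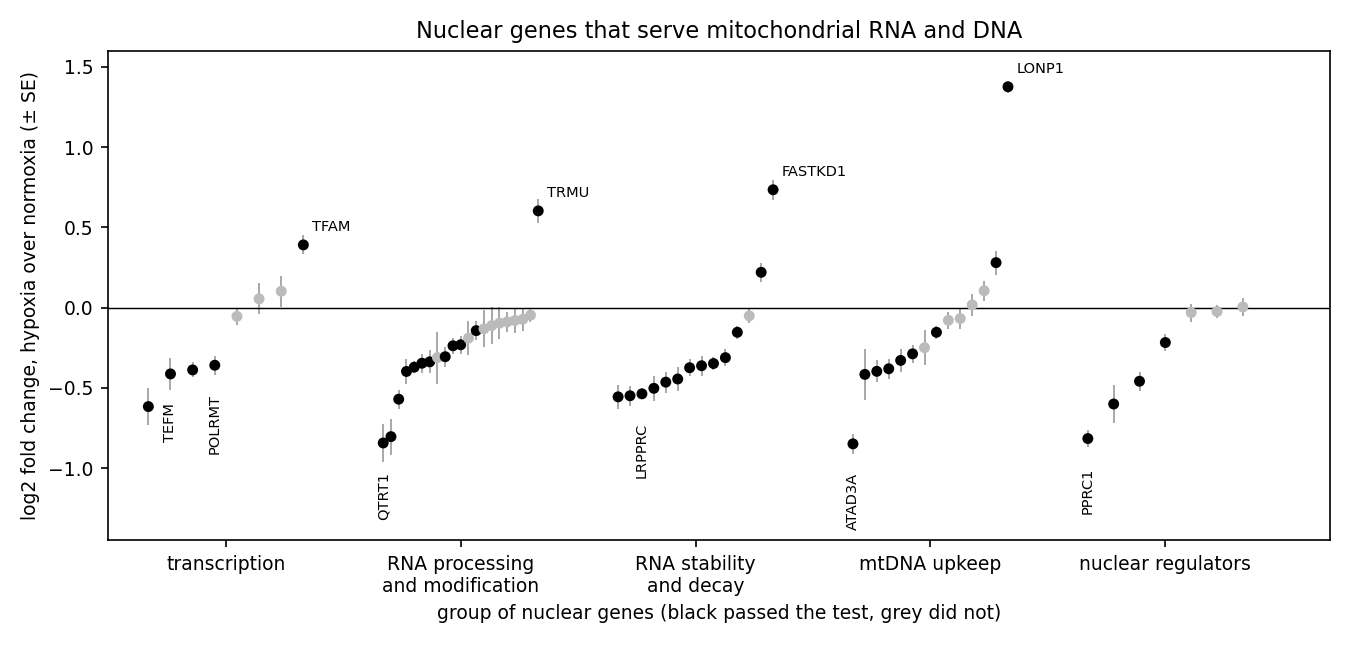
Log2 fold change of hypoxia over normoxia with its SE for the 64 tested nuclear genes that serve mitochondrial RNA and DNA, in 5 groups and sorted by value within each; black points passed the test and grey points did not. Most points lie below 0, and LONP1 (1.38), FASTKD1 (0.73), TRMU (0.60) and TFAM (0.39) stand above.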

How the data were processed

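Poly(A) RNA was captured on oligo-dT, per the labels' protocols, and libraries were made with the NEBNext Ultra II RNA kit, which does not mark strand, and sequenced paired-end on an Illumina NextSeq. The build is CanFam3.1, per the submitters' processing notes. Aligner and counting tool: not given in the sources used here. The deposited counts comprise, per the file headers, total and unique gene reads, total exon reads and total intron reads, and no source says whether a pair counts as 1. The TPM values are the authors' own, per the file headers.

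Total gene reads were filtered with filterByExpr, leaving 15397 genes, scaled by TMM and tested with edgeR 4.0.16 (quasi-likelihood, robust, R 4.3.3) at an adjusted p of 0.05, without covariates. The common biological coefficient of variation was 4.76%. A further fit set each library size to its mitochondrial reads. DESeq2 1.42.0 was an alternative. Single values were compared by two-sided exact permutation, which 3 against 3 cannot bring under 0.1. The code was tested on simulated data. The genes and lists were chosen with earlier results of these data known. Named were all rRNAs and mRNAs, the tRNA rows that passed the filter, the 3 largest called rises and falls of the nuclear list with a mean of at least 1 CPM, and TFAM, POLRMT, TEFM and LRPPRC. Replicates differed by more than sampling noise (chi-square per degree of freedom 4.22 to 13.7 over all genes and 17.6 to 109 over the 15 mitochondrial rRNAs and mRNAs, highest between hypoxia replicates 1 and 3). The libraries held 907178 to 1247206 mitochondrial reads, of which at most 77 fell on tRNA rows. No genome was used here.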

Additional observations from a re-analysis of the deposited data

How the results depend on the processing

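Of 231 alternative log2 changes of the 18 mitochondrial rows that passed the filter, 218 stayed on the same side of the threshold, 10 became called and 3, all ND5, lost the call; none reversed. Lower calls numbered 10 to 13 over all alternatives (11 in the main test) and the higher call stayed at 1. Apart from 1 tRNA row, only the longer rRNA and MT-ATP8 gained calls. The longer rRNA gained them without hypoxia replicate 3 (-0.32), without a count filter (-0.22), with library size as the only scaling (-0.28) and with the replicate block (-0.22). Relative to mitochondrial reads, 185 of 213 values stayed on the same side, and leaving out replicates gave 6 to 9 higher calls (11 in the main test; 7 without hypoxia replicate 1 and 6 without normoxia replicate 2) and 3 lower. With MT-ND1, MT-ND2 and MT-CYB left out of that scaling, 6 rows were lower and 5 higher. The share of all genes called there was not computed. MT-CO2 (-0.066), MT-ATP6 (-0.11), COX3 (-0.037), MT-ND3 (-0.024) and MT-ND4 (-0.075) turned sign. The divisor then lacks the members that fell most, so all relative values shift down by construction. The mitochondrial share of gene reads stayed lower under hypoxia, by 1.25 to 1.31 percentage points with replicates left out, and the nuclear list gave 35 to 43 lower and 6 higher calls. Equal replicate numbers are not stated to pair the samples, and same-numbered libraries did not deviate together (correlations -0.085 to 0.026). With the replicate block MT-ATP8 was called lower (-0.36, adjusted p = 0.0102 by edgeR). There 13 mitochondrial rows were called lower and 1 higher, 11 higher and 3 lower relative to mitochondrial reads, and 37 lower and 6 higher in the nuclear list; the difference in mitochondrial share was -1.29 percentage points (exact sign-change p = 0.25, the smallest possible).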
